A study of Mus musculus with 6 samples.

Results

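The late-numbered mouse miRNAs examined here were all mouse assays with no # in their name whose miRNA number is 680 to 720 or 1000 and over. Both strands of a hairpin could therefore be among these assays. The rule reads the name alone, but it was set with earlier results of these data known. It gave 120 of the 750 miRNA assays, 34 in the first range and 86 in the second. The data are TaqMan low-density arrays of freshly isolated monocytes from 3 DBA/1 mice, in which each mouse gave 1 Ly6Chigh (classical) and 1 Ly6Clow (non-classical) sample, 6 samples in all. The design text says that the mice were treated separately, and the labels name no agent or genetic change for either group, while the age of the mice and the purity of the mouse sorts are not given in the sources used here. Each sample was read from 10 ng of RNA, after preamplification of the cDNA, on 2 cards, called A and B by their order in the deposited values. Of the late-numbered assays, 8 were on card A and 112 on card B, while of the primer pools only that of card A is mentioned in the labels.

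MicroRNAs are numbered in the order in which they are registered. Low numbers tend to be abundant and conserved miRNAs that were found by cloning, and high numbers tend to be entries found later by sequencing, often read at low abundance and in rodents only. Many entries numbered 680 to 720 were registered from small RNAs of mouse embryos. Some late entries were later recognised as pieces of other RNAs, such as miR-720, a piece of a transfer RNA, or miR-712 and miR-715, which come from spacers of the ribosomal RNA precursor. A miRNA recognises its targets mainly through its seed, bases 2 to 8 of the mature strand. Ly6Chigh monocytes are recruited to inflamed tissue, and Ly6Clow monocytes patrol the vessel wall.

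Of the 120 assays, 62 had a mature sequence of exactly the same name in RefSeq (GRCm38.p6), and these 62 had 62 different seeds, so that none of them shared a seed with another. The sequences of the miRNAs on which the results below turn are shown with the seed in capitals, first miR-1905, for its detection in Ly6Clow samples alone, then those with a large difference between mice or detection in mouse 2 alone, then miR-697, for its fitted difference between the subsets, and last those read in 5 or 6 samples.
miR-1905: cACCAGUCccaccacgcgguag
miR-690: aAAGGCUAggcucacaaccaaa
miR-691: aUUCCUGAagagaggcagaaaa
miR-692: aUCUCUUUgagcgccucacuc
miR-719: aUCUCGGCuacagaaaaauguu
miR-1951: gUAGUGGAgacugguguggcua
miR-1839-5p: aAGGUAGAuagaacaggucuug
miR-1954: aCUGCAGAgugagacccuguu
miR-1941-5p: aGGGAGAUgcugguacagaggcuu
miR-697: aACAUCCUgguccuguggaga
miR-717: cUCAGACAgagauaccuucucu
miR-1896: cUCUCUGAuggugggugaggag
miR-1902: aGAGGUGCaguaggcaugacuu
In this annotation most of these lie within the span of another gene. Mir1905 lies in Mex3a, which encodes an RNA-binding protein, Mir1954 in Eng, which encodes endoglin, Mir717 in Gpc3, which encodes the surface proteoglycan glypican 3, and Mir691 in Robo2, which encodes an axon guidance receptor. miR-692 has 3 loci with 1 identical mature sequence, and 2 of them lie in pseudogenes of the ferritin light chain, Ftl2-ps and Ftl1-ps1. The mature sequence of miR-692 therefore cannot be assigned to a single locus from these values.

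A threshold cycle (Ct) is the PCR cycle at which a reaction rises above a set fluorescence, so that a Ct lower by 1 means 1 log2 unit more template. A reaction that gave no signal carries a Ct of 40, and a Ct under 35 is called detected here. Levels are given as −ΔCt, the Ct of U6 small nuclear RNA on the same card minus the Ct of the assay, which is a log2 scale relative to U6. On card B, the U6 Ct subtracted was 23.75, 24.86 and 21.15 in the Ly6Chigh samples of mice 1, 2 and 3 and 21.39, 20.03 and 22.71 in the Ly6Clow samples. Detected late-numbered assays of card B lay within 0.05 cycles of a whole Ct in 83.9% to 94.7% of cases in 5 samples and in 8.33% in the Ly6Clow sample of mouse 1, so that most differences are read in steps of about 1 cycle. On card A, the leukocyte miRNA miR-142-3p and the myeloid miRNA miR-223 had a Ct of 19.97 to 23.97 and of 16.96 to 21.95 in 5 samples, but both were undetected in the Ly6Chigh sample of mouse 1, where the lymphocyte miRNA miR-150 was still read at 29.98. Of 4 epithelial miRNAs, miR-200b had its lowest Ct in that sample, at 21.98, miR-200c was at 29.97, within its range of 26.98 to 30.03 in the others, and miR-200a and miR-141 were undetected there. All late-numbered assays that could be tested were on card B. The limma fits, the adjustment and the shares of all tested assays below nevertheless include 127 assays of card A among 201.

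Most late-numbered miRNAs gave no signal. Of the 120 assays, 70 (58.3%) were undetected in all 6 samples, 50 were detected in at least 1 sample, 21 (17.5%) in at least 3 and 7 (5.83%) in all 6. The number detected was 19, 32 and 15 in the Ly6Chigh samples of mice 1, 2 and 3 and 24, 41 and 12 in the Ly6Clow samples. The count was therefore highest in both samples of mouse 2 and lowest in both samples of mouse 3, whichever the subset. Among the numbers 680 to 720, 17 of 34 were detected at least once, and among the numbers 1000 and over, 33 of 86. On card B, detection of the late-numbered assays ran from 10.7% to 33.9% of 112 assays per sample and that of the other miRNA assays from 7.22% to 41.8% of 263, in the same order of mice. A single sample accounted for the signal of 13 late-numbered assays, and for 8 of these it was the Ly6Clow sample of mouse 2.

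**Figure D1:**
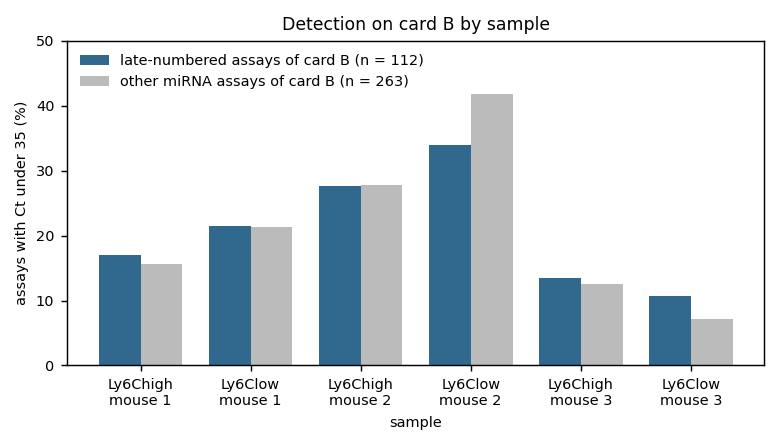
Share of assays with a Ct under 35 on card B (y axis, percent) in each of the 6 samples (x axis), with blue bars for the 112 late-numbered assays and grey bars for the 263 other miRNA assays. Both kinds were most often detected in mouse 2 (27.7% and 33.9% of the late-numbered assays) and least often in mouse 3 (13.4% and 10.7%).

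The miRNAs detected in all 6 samples were miR-1896, miR-694, miR-1951, miR-720, miR-1893, miR-1902 and miR-1982.1. The highest mean level was that of miR-1896, at −4.70 ± 1.42 (SD, n = 6 samples) relative to U6 on the log2 scale. It was followed by miR-694 at −6.19 ± 1.01, and the lowest mean was that of miR-1982.1, at −9.67 ± 2.55 (SD, n = 6 for each). Levels of different assays also hold the efficiency of each assay, so this order is a description of the readings. The mean levels of miR-720 (−8.83), miR-1893 (−8.89) and miR-1902 (−9.18) lay closer together than their SDs of 0.74 to 1.30.

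For miR-1896, the Ct was 26.96, 28.99 and 25.99 in the Ly6Chigh samples of mice 1, 2 and 3 and 25.22, 24.97 and 29.99 in the Ly6Clow samples. The Ly6Chigh level was higher in each mouse, by a log2 difference of 0.62, 0.82 and 2.44, but the groups overlapped. Across the mice, limma gave a difference of 1.29 with a standard error of 1.62 (adjusted p = 0.985). Without normalization to U6 it became −0.58.

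For miR-694, the Ct was 29.97, 29.96 and 27.94 in the Ly6Chigh samples and 26.24, 26.96 and 29.98 in the Ly6Clow samples. Relative to U6, the difference was −1.38, 1.83 and 0.48 in mice 1, 2 and 3, so its direction differed between mice. The Ct of miR-720, the transfer RNA piece, was 32.02, 33.02 and 29.98 in the Ly6Chigh samples and 28.88, 28.97 and 33.97 in the Ly6Clow samples, with within-mouse differences of −0.79, 0.78 and 2.43. miR-1893 had a Ct of 32.99, 32.94 and 31.00 in the Ly6Chigh and of 29.33, 28.98 and 31.98 in the Ly6Clow samples. miR-1902 had a Ct of 32.94, 33.98 and 30.98 in the Ly6Chigh and of 29.14, 29.96 and 31.97 in the Ly6Clow samples. For both, the within-mouse difference was lower in mice 1 and 3 and higher in mouse 2, between −1.44 and 0.87. The 5 miRNAs of the left panel of the plot of Ct by sample thus had a lower Ct in the Ly6Clow sample of mice 1 and 2 and a higher one in that of mouse 3, as did U6.

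miR-1982.1 differed in pattern from the other broadly detected miRNAs. Its Ct was 32.95, 29.95 and 33.97 in the Ly6Chigh samples and 32.08, 29.98 and 32.98 in the Ly6Clow samples. In mouse 2, both Ct values were about equal while U6 was later by 4.83 cycles in the Ly6Chigh sample, so that the difference relative to U6 was 4.86, beside 1.48 in mouse 1 and −2.56 in mouse 3. Between the subsets, limma gave a difference of 1.26 with a standard error of 2.27 (adjusted p = 0.985).

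**Figure D2:**
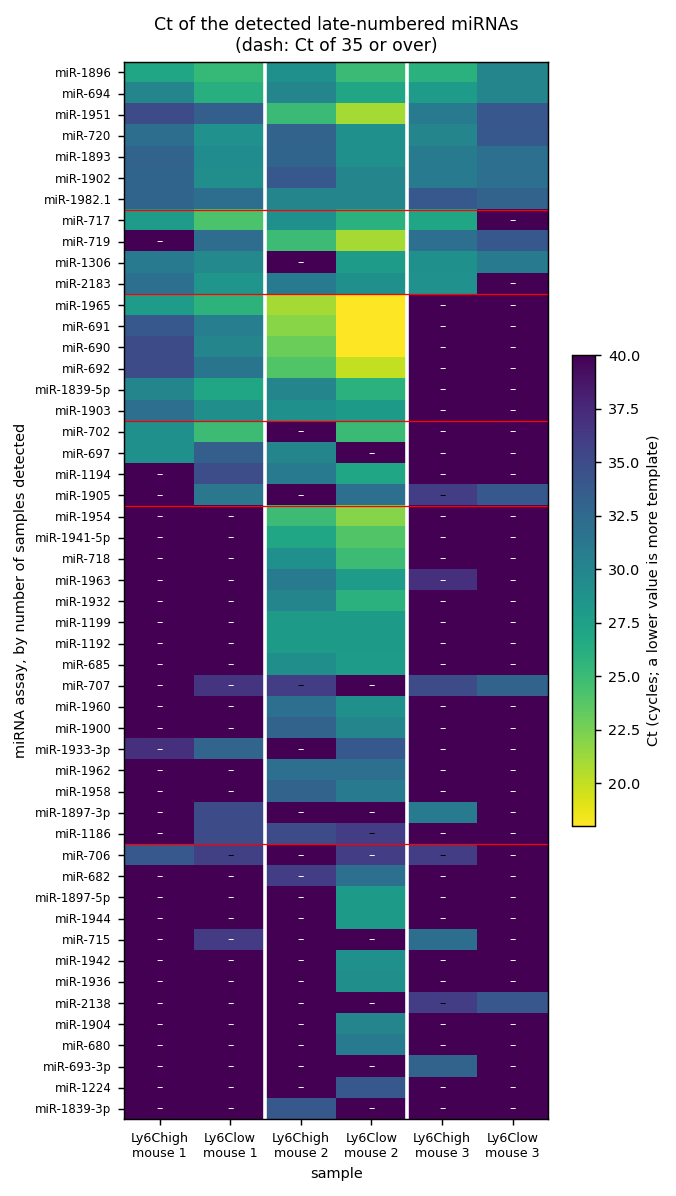
Ct (colour, cycles) of the 50 late-numbered assays detected in at least 1 sample (y axis, from those detected in all 6 samples at the top to those detected in 1 at the bottom, red lines between the groups) in the 6 samples (x axis, mice separated by white lines). A dash marks a Ct of 35 or over, and the lowest Ct values, near 18, are those of miR-690, miR-691 and miR-1965 in the Ly6Clow sample of mouse 2.

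The largest differences among the late-numbered miRNAs lay between mice. miR-690 had a Ct of 34.98 and 29.98 in the Ly6Chigh and Ly6Clow sample of mouse 1 and of 22.97 and 17.97 in mouse 2, and it was undetected, at 40, in both samples of mouse 3. For miR-691, the Ct was 33.98 and 30.62 in mouse 1, 21.95 and 17.96 in mouse 2 and 40 in both samples of mouse 3. For miR-692, the miRNA with copies in ferritin light chain pseudogenes, it was 34.96 and 31.46 in mouse 1, 23.98 and 19.98 in mouse 2 and 40 in both samples of mouse 3. In each of the 3 miRNAs, the values of the mice did not overlap, and both subsets of a mouse lay on the same side.

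For miR-1965, the Ct was 27.95 and 25.77 in mouse 1, 20.96 and 17.97 in mouse 2 and 40 in both samples of mouse 3. In mouse 2, its level exceeded that of U6, by 3.90 in the Ly6Chigh and 2.06 in the Ly6Clow sample on the log2 scale. The same held there for miR-690 (1.89 and 2.06), miR-691 (2.91 and 2.06) and miR-692 (0.88 and 0.04). miR-1951 was detected in all 6 samples, so that its difference between mice does not rest on undetected reactions. Its Ct was 34.999 and 33.37 in mouse 1, 24.97 and 20.95 in mouse 2 and 30.95 and 33.99 in mouse 3, the first of these values just under the detection limit. Its mean level was thus −0.52 in mouse 2, beside −11.61 in mouse 1 and −10.54 in mouse 3. miR-719 likewise had its lowest Ct in mouse 2, at 24.96 and 20.98, beside 31.99 and 33.97 in mouse 3, while in mouse 1 it was 40 in the Ly6Chigh and 32.10 in the Ly6Clow sample. miR-1194, with a Ct of 30.98 and 26.96 in mouse 2, was otherwise detected only in the Ly6Clow sample of mouse 1, at 34.82. miR-1903, which lies in the span of the semaphorin receptor gene Nrp1, had a smaller difference between mice 1 and 2, with a Ct of 31.97 and 29.05 in mouse 1, 28.94 and 27.99 in mouse 2 and 40 in both samples of mouse 3.

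A further 12 miRNAs were detected in both samples of mouse 2 and in no sample of the other mice. The lowest Ct values among them were those of miR-1954 (24.96 in the Ly6Chigh and 21.97 in the Ly6Clow sample), miR-1941-5p (26.98 and 23.94), miR-718 (28.97 and 24.91), which lies within the inflammatory signalling kinase gene Irak1, and miR-1932 (29.96 and 25.98). The others were miR-1963, miR-685, miR-1199, miR-1192, miR-1960, miR-1900, miR-1962 and miR-1958. Of these, miR-1199, miR-1192 and miR-1962 had Ct values within 0.02 cycles of each other in the 2 subsets of mouse 2, where most Ct values lie near whole cycles. Relative to U6, they were higher in the Ly6Chigh sample of mouse 2, by 4.84, 4.82 and 4.84 on the log2 scale. In all, 19 of the 120 late-numbered assays (15.8%) were detected in both samples of mouse 2 and neither of mouse 3, and 1, miR-707, in both samples of mouse 3 and neither of mouse 2. The first pattern held for 12.3% of all 750 miRNA assays. On card B, it held for 16.1% of the late-numbered and 21.3% of the other miRNA assays, so it was not particular to the late-numbered ones. Detection in both samples of mouse 2 and in no sample of the other mice was likewise not particular to them. This narrower pattern held for 10% of the 120 and 7.33% of all 750 assays. On card B, it held for 9.82% of the late-numbered and 12.5% of the other miRNA assays.

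Of the small RNA controls that are not miRNAs, snoRNA135 on card B and snoRNA202 on card A had this order of mice. On card B, snoRNA135, a small nucleolar RNA, had a Ct of 35.95 and 32.36 in the Ly6Chigh and Ly6Clow sample of mouse 1, 23.96 and 20.0004 in mouse 2 and 40 in both samples of mouse 3. Its Ct on card A was 40 and 35.996 in mouse 1, 25.96 and 21.98 in mouse 2 and 40 in both samples of mouse 3, so there it was detected only in mouse 2. On card A, snoRNA202 had a Ct of 31.92 and 30.96 in mouse 1, 22.97 and 18.99 in mouse 2 and 40 in both samples of mouse 3. On card A, U87 was detected only in mouse 2, at 28.97 and 24.99, whereas on card B U87 and snoRNA202 were detected only in the Ly6Clow sample of mouse 2, at 31.99 and 33.98. The Y RNA control Y1 did not have this order on card B, where its Ct was 30.01 and 31.74 in mouse 1, 40 and 28.97 in mouse 2 and 40 in both samples of mouse 3. On card A, it was detected only in mouse 2, at 29.95 and 27.99. U6 did not follow this order, since on card B both its highest Ct (24.86, Ly6Chigh) and its lowest (20.03, Ly6Clow) were in mouse 2. The part of differing RNA input, amplification or handling of the mice in this pattern was not tested, and mouse and any shared handling of its 2 samples cannot be told apart.

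**Figure D3:**
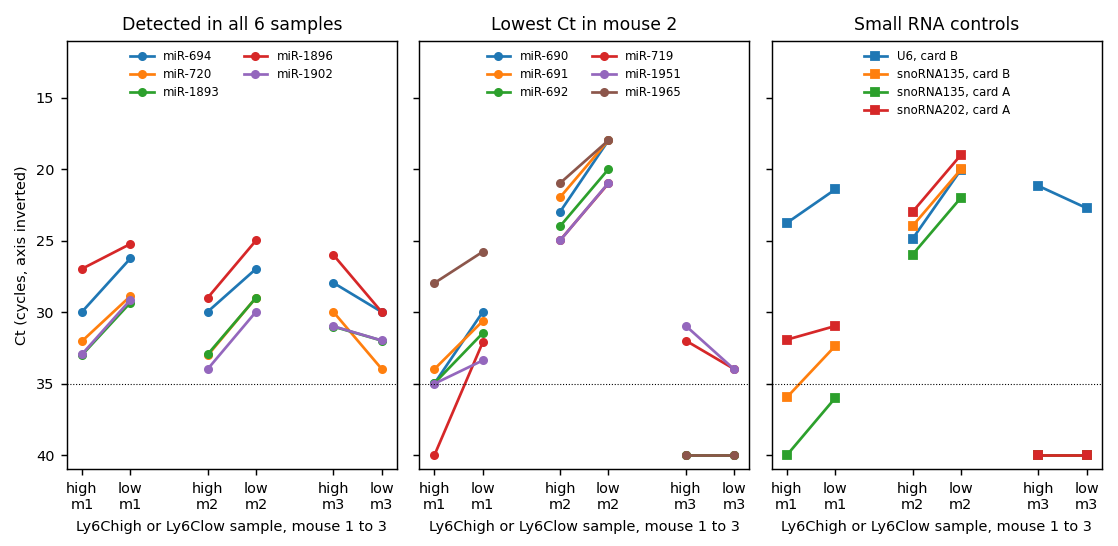
Ct (y axis, cycles, inverted so that more template is higher) in the Ly6Chigh and Ly6Clow sample of each mouse (x axis), with lines joining the 2 samples of a mouse and a dotted line at the detection limit of 35. The left panel shows 5 miRNAs detected in all samples, the middle panel 6 miRNAs that are highest in mouse 2, such as miR-1951 at 24.97 and 20.95, and the right panel U6 on card B and the small nucleolar RNAs snoRNA135 (both cards) and snoRNA202 (card A), which were highest in mouse 2.

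Over the 21 tested late-numbered assays, the Ct values of the 2 samples of a mouse had a Spearman correlation of 0.67 to 0.79, and samples of the same subset from different mice one of −0.35 to 0.24. The assays of a sample share its RNA, card and amplification and are not independent. For the 53 other tested assays of card B, the ranges were 0.81 to 0.94 and −0.22 to 0.41. A limma fit with subset and mouse as terms was added after this pattern was seen. Its mouse term had an adjusted p under 0.05 for 6 of the 21 late-numbered assays, all of them on card B, beside 11 of the 53 other tested assays of card B. Over all 201 tested assays the share was 8.46% (17 in all), with 0 of the 127 on card A. The 6 were miR-690, miR-691, miR-692 and miR-1965 (adjusted p = 0.0182 each), miR-1839-5p (0.0352) and miR-1951 (0.037). For all but miR-1951, the values in mouse 3 are those given to undetected reactions. On card A, where the count was 0, the 2 samples of mouse 1 shared 46.8% of the assays detected in its Ly6Chigh sample. In mice 2 and 3 this share was 98.2% and 86.8%, and its part in the count of 0 was not tested. With Ct above 35 set to 35, the mouse term passed for 7 of the 21, beside 18 of all 201 tested assays. It passed for 4 beside 16 without normalization, and for 4 beside 14 with centring on the median. Of the 53 other tested assays of card B, it passed for 10, 11 and 10 in these 3 fits. When any mouse was left out, it passed for 0 of all 201. With 1 sample left out, 1 mouse has a single sample, so the counts of those fits are not given.

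Between the subsets, 0 of the 21 tested late-numbered assays and 0 of all 201 tested assays (0%) had a limma adjusted p under 0.05. The adjusted p was 0.985 for each. The difference was higher in Ly6Chigh monocytes for 10 and lower for 11, with a median of −0.34 on the log2 scale, beside −0.45 for all tested assays. Without adjustment, the p-value was under 0.05 for 1 late-numbered assay, miR-1905, which was lower in Ly6Chigh monocytes, as were 0.995% of all tested assays. It was also the only one of the 21 tested late-numbered assays whose 3 Ly6Chigh levels did not overlap its 3 Ly6Clow levels, which held in this direction for 2.49% of all tested assays and in the other direction for 0 of the 21 and 2.99% of all. Neither its unadjusted p nor this lack of overlap is independent of the filter, which miR-1905 passed through its Ly6Clow samples alone.

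miR-1905 was detected in all 3 Ly6Clow and in no Ly6Chigh sample, the only one of the 120 with this pattern. The share of all 750 miRNA assays with it was not counted. Detection in all 3 Ly6Clow samples, whatever the Ly6Chigh samples gave, held for 10 of the 120 and 120 of all 750. Detection in all 3 Ly6Chigh samples held for 9 and 64. This gap over all assays lay on card A, with 96 and 41 of its 375 assays. On card B, which holds miR-1905, the counts were 14 and 14 of the 263 other assays. The part of the Ly6Chigh sample of mouse 1 in the card A gap was not tested. The Ct of miR-1905 was 31.28, 31.98 and 33.97 in the Ly6Clow samples of mice 1, 2 and 3, whereas in the Ly6Chigh samples it was 40 in mice 1 and 2 and 35.997 in mouse 3. Relative to U6, the level was −15.41 ± 0.74 (SD, n = 3) in Ly6Chigh and −11.03 ± 1.05 (SD, n = 3) in Ly6Clow monocytes, and it was lower in Ly6Chigh monocytes in 3 of 3 mice, by −6.37, −3.19 and −3.59. The log2 difference was −4.39 (standard error 1.46, limma unadjusted p = 0.0244, adjusted p = 0.985), and a 2-sided exact permutation test gave p = 0.1, the smallest that 3 samples against 3 allow. It passed the filter through its Ly6Clow samples alone, and so had to differ.

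The size of the miR-1905 difference rests on the value given to undetected reactions. When Ct values above 35 were set to 35, the within-mouse differences were −1.37, 1.81 and −2.59, and limma gave a difference between the subsets of −0.72 with a standard error of 1.44 (adjusted p = 0.991). The sign turned in mouse 2 because U6 was later there by 4.83 cycles in the Ly6Chigh sample, so that a Ct of 35 in that sample still corresponds to a level of −10.14, above the Ly6Clow level of −11.95. No difference could be computed without the undetected reactions. At this detection limit, a lower level of miR-1905 in Ly6Chigh monocytes was therefore measurable in mice 1 and 3 and not in mouse 2.

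miR-697, which lies in the span of the splicing factor gene Sf3a3, had the highest fitted difference of the 21. Its Ct was 28.99, 29.9997 and 40 in the Ly6Chigh samples of mice 1, 2 and 3 and 33.34, 40 and 40 in the Ly6Clow samples. It was higher in Ly6Chigh monocytes by 6.70 in mouse 1, and in mouse 2 it was detected in the Ly6Chigh sample only, at a level of −5.14 against an upper limit of −14.97 for a Ct of 35 in the Ly6Clow sample. In mouse 3 it was undetected in both. In the limma fit it was higher in Ly6Chigh monocytes by 6.66, with a standard error of 4.41 (adjusted p = 0.985).

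Further large differences between the subsets held undetected reactions. miR-717 had a Ct of 27.96, 28.96 and 26.96 in the Ly6Chigh and of 24.25, 25.97 and 40 in the Ly6Clow samples, and miR-2183 had 31.98, 30.99 and 28.90 in the Ly6Chigh and 28.55, 28.97 and 40 in the Ly6Clow samples. Both were thus detected in 5 samples and missing in the Ly6Clow sample of mouse 3, and their fitted differences of 3.99 (standard error 3.86) and 3.76 (standard error 2.93) hold that reaction. Leaving out undetected reactions gave −0.30 for miR-717 and 0.68 for miR-2183. For miR-702, which is cut from a short intron by splicing, the Ct was 28.99, 40 and 40 in the Ly6Chigh and 24.92, 24.99 and 40 in the Ly6Clow samples, with a fitted difference of −4.49 (standard error 5.07), the lowest of the 21. Without its undetected reactions it was −0.996. miR-1306, which lies in Dgcr8, the gene of the Drosha partner in miRNA processing, was missing only in the Ly6Chigh sample of mouse 2. Its Ct was 30.96 and 28.97 in the Ly6Chigh samples of mice 1 and 3 and 29.62, 27.96 and 30.93 in the Ly6Clow samples, and its level was higher in Ly6Chigh monocytes by 1.01 in mouse 1 and 0.41 in mouse 3.

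**Figure D4:**
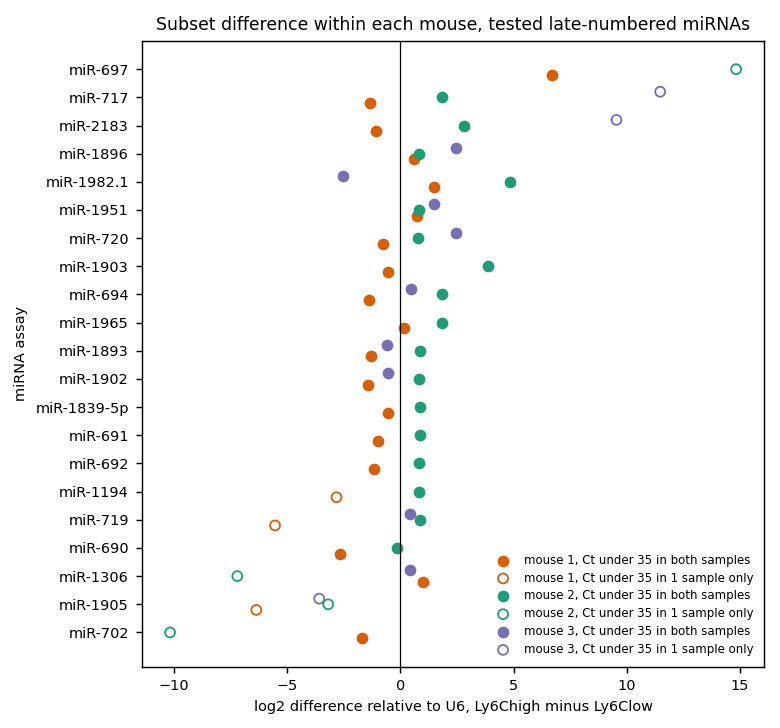
Log2 difference relative to U6, Ly6Chigh minus Ly6Clow, within mouse 1 (orange), 2 (green) and 3 (purple) for the 21 tested late-numbered assays, ordered by their mean difference. Filled points had a Ct under 35 in both samples of the mouse and open points in 1 of them, pairs undetected in both are not drawn, and the filled points lie between −2.65 (miR-690 in mouse 1) and 6.70 (miR-697 in mouse 1).

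Where both reactions of a mouse were detected, the direction of the differences went with the mouse. In mouse 1, 12 of 18 late-numbered miRNAs were lower in Ly6Chigh monocytes, with a median difference of −0.90. In mouse 2, 28 of 29 were higher, with a median of 1.80, the exception being miR-690 at −0.17. In mouse 3, 6 of 10 were higher, with a median of 0.42. The medians of the other miRNA assays of card B were 0.22, 1.84 and 0.43, so that mice 2 and 3 differed by less than 0.05 from them. Of those other assays, 17 of 38 were lower in mouse 1, and 70 of 70 and 11 of 18 were higher in mice 2 and 3. The raw Ct was later in the Ly6Chigh sample for 17 of 18, 26 of 29 and 2 of 10 late-numbered miRNAs, and the U6 Ct on card B differed by 2.35, 4.83 and −1.56 cycles in the same direction. For the other assays of card B, the raw Ct was later in 37 of 38, 66 of 70 and 1 of 18. Without normalization, 3 of the 21 tested assays were higher in Ly6Chigh monocytes and 18 lower, as the median of all tested assays shifted from −0.45 to −2.32, and with centring on the median it was 6 and 15.

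For several hairpins the cards held more than 1 assay. miR-1839-5p was detected in both samples of mice 1 and 2, at a Ct of 30.02 and 27.10 in mouse 1 and 29.96 and 25.97 in mouse 2, whereas miR-1839-3p was detected only in the Ly6Chigh sample of mouse 2, at 33.97. miR-1941-5p was detected in mouse 2, and miR-1941-3p in no sample. miR-1897-3p was detected in the Ly6Chigh sample of mouse 3 (30.96) and the Ly6Clow sample of mouse 1 (34.86), and miR-1897-5p only in the Ly6Clow sample of mouse 2 (28.00), so that these strands were never read in the same sample. miR-1933-3p was detected in the Ly6Clow samples of mice 1 and 2 (32.86 and 33.94) and miR-1933-5p in none. miR-693-3p was detected only in the Ly6Chigh sample of mouse 3 (32.99) and miR-693 in none. miR-1982.1 was detected in all samples and miR-1982.2 in none, and both strands of miR-1894 were undetected in all samples.

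Of 8 entries listed as pieces of transfer or ribosomal RNAs, 7 were on the cards and 5 of these (miR-712, miR-1937b, miR-1937c, miR-2134 and miR-2135) were undetected in all samples. miR-720 was detected in all 6, and miR-715 only in the Ly6Chigh sample of mouse 3, at a Ct of 32.04. Of the miRNAs detected in a single sample, those with a Ct under 30 were miR-1897-5p (28.00), miR-1944 (28.03), miR-1942 (28.98), miR-1936 (29.05) and miR-1904 (29.99). All 5 were in the Ly6Clow sample of mouse 2, whose card B also gave a Ct of 33.97 for the plant control assay ath-miR159a, which was 40 on every other card. The part of unspecific amplification in these signals was not tested.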

How the data were processed

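The authors' deposited values are raw Ct and ΔCt, both log2 values that fall as template rises. ΔCt is Ct minus the U6 Ct of the same sample and card, and the subtracted value was 1 constant per sample and card, within 0.011 cycles of the mean of its U6 wells. A deposited table of within-mouse ratios, the authors' own comparison, was not used. The software and threshold behind Ct, and the test behind the study's adjusted p, are not given in the sources used here. Groups and mice were taken from the sample titles.

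The 18 control wells were left out. The 201 of 750 assays detected (Ct under 35) in 3 or more of the 6 samples were tested on −ΔCt with limma 3.58.1 (lmFit, eBayes) in R 4.3.3, without a mouse block, with Benjamini-Hochberg adjustment over all 201 and a threshold of 0.05. Undetected reactions kept a Ct of 40. The steps were tested on simulated data. Single assays were compared by exact permutation. Tables and figures were made in Python 3.11.15 with scipy 1.17.1 and matplotlib 3.10.9. The samples of 1 mouse, paired by the labels, deviated together from their subset means (r of 0.32, 0.62 and 0.72 over the 201 assays). Every tested late-numbered assay was named, and of those detected in a single sample the ones with a Ct under 30. Other assays were named where they illustrate a count, after their values were seen. The members and lists were chosen with earlier results of these data known. The alternatives were no normalization, median centring, 3 other filters, 2 other treatments of undetected reactions, the mouse block, no moderation, other detection limits, and each sample and mouse left out. The mouse term was added after the data were seen. Sequences and gene spans come from RefSeq (GRCm38.p6). Because the deposited values name no build, no coordinates are given. The number of arrays limits the precision, and each group has 3 mice.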

Additional observations from a re-analysis of the deposited data

Results flagged for a closer look

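The plant control assay ath-miR159a, which has no counterpart in mouse and enters no comparison, was read at 33.97 cycles in the Ly6Clow sample of mouse 2 (card B) and was undetected on the other 11 cards.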

How the results depend on the processing

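Across the 18 alternatives, 0 tested assays passed the adjusted threshold, and the adjusted p of the late-numbered miRNAs ran from 0.486 to 0.999. The count of late-numbered assays with an unadjusted p under 0.05, 1 with the values as reported, became 0 with a Ct limit of 32, with detection required in all 6 samples and with Ct above 35 set to 35, and 2 with no filter. It was 0 to 1 when single samples or mice were left out, 0 without each Ly6Clow sample in turn or without mouse 2. The 1 was miR-697 and not miR-1905 without the Ly6Chigh sample of mouse 3, without mouse 3 and with undetected reactions left out, where miR-1905 had no value. With the mouse as a block, supported by the pairing in the labels, the miR-1905 difference was −4.39 (standard error 1.35, limma adjusted p = 0.949), and the block changed no call. The miR-1905 difference was −6.26 without normalization, −5.26 with median centring and −0.72 with Ct above 35 set to 35, and −4.98 to −3.39 when single samples or mice were left out.

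Of the 21 late-numbered assays, 17 changed direction at least once and 4 (miR-702, miR-2183, miR-1905 and miR-697) never did. Without normalization, the difference became −1.07 for miR-720, −1.57 for miR-694, −0.58 for miR-1896, −1.29 for miR-1903, −0.87 for miR-1951, −1.73 for miR-1965 and −0.61 for miR-1982.1. With median centring, it became −0.062 for miR-720, −0.56 for miR-694, −0.28 for miR-1903 and −0.72 for miR-1965. With Ct above 35 set to 35, it became 0.25 for miR-719 and 0.48 for miR-1194. With undetected reactions left out as missing, it became −0.30 for miR-717, 2.17 for miR-719, 0.61 for miR-1306, 0.14 for miR-1839-5p and 4.06 for miR-1194. The cause of these changes with normalization or undetected reactions was not tested beyond the shift of the median of all tested assays given with the within-mouse differences.

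When single samples or mice were left out, the difference ran from −0.21 to 1.68 for miR-720, −0.30 to 6.91 for miR-717, −7.10 to 3.54 for miR-690, −6.39 to 4.53 for miR-691, −5.93 to 3.95 for miR-692, −0.45 to 1.15 for miR-694, −5.90 to 2.17 for miR-719 and −3.40 to 0.71 for miR-1306. It ran from −4.25 to 3.96 for miR-1839-5p, −0.94 to 0.15 for miR-1893, −1.003 to 0.22 for miR-1902, −2.57 to 4.82 for miR-1903, −2.47 to 4.57 for miR-1951, −5.23 to 6.38 for miR-1965, −0.71 to 3.17 for miR-1982.1 and −5.00 to 1.62 for miR-1194. For those that kept their direction, it ran from 0.68 to 6.18 for miR-2183 (0.68 without the Ly6Clow sample of mouse 3), −8.83 to −1.60 for miR-702 (−8.83 without the Ly6Clow sample of mouse 3), 2.57 to 11.21 for miR-697 (2.57 without mouse 2) and 0.33 to 2.05 for miR-1896 (0.33 without the Ly6Clow sample of mouse 3). The fits behind these ranges had no mouse block, so leaving out a single sample let differences between mice enter the fitted difference. The direction changed for 4 to 6 assays when a single sample was left out. Without mouse 1, 2 or 3, it changed for 3, 5 and 2 assays. With whole mice left out, miR-690 ran from −2.11 to −0.86, miR-691 from −1.28 to −0.082 and miR-692 from −1.36 to −0.16. The part of the missing block in the changes was not tested. The count of late-numbered assays with a mouse term past the threshold was 4 without normalization, beside 16 of all 201 tested assays. It was 4 beside 14 with median centring and 7 beside 18 with Ct above 35 set to 35. Among the 53 other tested assays of card B, it was 11, 10 and 10 in these fits. When any mouse was left out, it was 0 of all 201.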
